A study of Mus musculus with 6 samples.

Results

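The p53 and CDK inhibitor genes are 10 transcripts around the tumour suppressor p53 and the brakes on the cell cycle. They were taken by gene symbol and are Trp53, Mdm2, Mdm4, Cdkn1a, Cdkn1b, Cdkn2d, Ccng1, Gadd45a, Gadd45b and Zmat3. All 10 were found among the 52550 genes listed per library, and all 10 passed the filter on low values that left 15265 genes to test. RNA came from splenic plasmacytoid dendritic cells, the specialised interferon producers of the immune system, taken from C57BL/6 mice. In the R837 plus taurine group (3 libraries) the cells received R837 together with the amino sulfonic acid taurine for 12 hours, and in the R837 group (3 libraries) they received R837 alone for the same time. R837 (imiquimod) is an agonist of the endosomal receptor TLR7, so both groups were stimulated, and cells without R837 were not analysed here. The sources used here give neither the doses, the age and sex of the mice nor the way the cells were purified. Nor do they say if each replicate was its own animal or culture, and p-values therefore measure only the spread between these libraries.

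The protein p53 is a transcription factor that is held low by the ubiquitin ligase MDM2 and its partner MDM4 and accumulates when cells are stressed. It then raises genes that halt division, among them Cdkn1a, and genes that feed back on it, among them Mdm2 and Ccng1. CDK inhibitors bind cyclin-dependent kinases or their cyclin complexes and keep the cell from entering DNA replication. GADD45 proteins are small stress-induced proteins that bind MAP kinase kinases and other partners, and Gadd45b is also a known target of NF-kB, the factor that TLR signalling activates.

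The promoter stretches of the genes that rose, and of Ccng1 for comparison, are shown because they differ in whether they carry a p53 site next to an annotated start. Sequences are from RefSeq on GRCm38.p6, the build called mm10, cover the 250 bases before the start, and run 5′ to 3′ on the gene's own strand. RefSeq entries were matched for 9 of the 10 genes, with 11 windows in all. In the upstream start of Cdkn1a (chr17:29090729-29090978, plus strand) and in Ccng1 (chr11:40755287-40755536, minus strand), capitals mark a p53 site. In the downstream start of Cdkn1a (chr17:29093519-29093768, plus strand), capitals mark Sp1 boxes. In Gadd45b (chr10:80929841-80930090, plus strand), capitals mark an E-box, an Sp1 box and a TATA box, in this order.
Cdkn1a upstream start: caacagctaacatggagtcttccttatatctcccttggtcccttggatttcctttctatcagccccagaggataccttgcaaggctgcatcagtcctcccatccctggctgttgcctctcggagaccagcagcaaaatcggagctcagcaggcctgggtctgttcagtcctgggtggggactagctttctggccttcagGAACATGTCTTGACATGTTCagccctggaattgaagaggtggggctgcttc
Cdkn1a downstream start: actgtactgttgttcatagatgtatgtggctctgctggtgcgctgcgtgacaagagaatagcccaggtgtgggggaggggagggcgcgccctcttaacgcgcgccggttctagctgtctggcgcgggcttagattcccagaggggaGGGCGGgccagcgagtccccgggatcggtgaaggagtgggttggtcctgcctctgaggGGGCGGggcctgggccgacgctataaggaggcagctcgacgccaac
Ccng1: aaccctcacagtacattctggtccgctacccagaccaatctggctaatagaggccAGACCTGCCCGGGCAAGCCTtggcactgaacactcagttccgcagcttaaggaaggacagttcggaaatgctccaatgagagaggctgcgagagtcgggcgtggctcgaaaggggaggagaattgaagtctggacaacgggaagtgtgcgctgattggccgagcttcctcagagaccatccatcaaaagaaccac
Gadd45b: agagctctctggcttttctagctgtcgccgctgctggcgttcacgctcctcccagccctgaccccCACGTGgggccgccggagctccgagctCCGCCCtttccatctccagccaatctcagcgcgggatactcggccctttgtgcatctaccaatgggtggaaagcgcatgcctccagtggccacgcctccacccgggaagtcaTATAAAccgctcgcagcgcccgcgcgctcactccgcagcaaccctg

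The p53 site was searched by name, as the consensus p53 response element made of a pair of adjoining decamers with no spacer and at most 1 mismatch. Of 32851 RefSeq windows of 250 bases, 25 held one, which is 0.0761%. Among the windows of the 10 genes it lay in the upstream window of Cdkn1a, from 51 to 32 bases before the start, and in that of Ccng1, from 195 to 176 bases before the start, each with 1 mismatch. Also searched, on both strands, were the Sp1 box GGGCGG (32.7% of all windows), the E-box CACGTG (6.02%) and the TATA box TATAAA (12.4%). None of the marked motifs overlap each other. No match to the interferon elements, which are the GAS letters TTCNNNGAA (7.02% of all windows) and the ISRE core of TTTC, any 2 bases and TTTC (2.98%), or to the NF-kB site, searched by name (7.25%), was found in the 11 windows. A match is a stretch of letters and does not show binding. Sequence outside these 250 bases, and p53 sites with a spacer, were not searched, so a gene without a match may hold sites elsewhere. The 25 windows belong to 25 genes, of which 8 were tested here. Of these 8, Cdkn1a and Rps27l rose with taurine and 0 fell, by limma at an adjusted p under 0.05, where 3.75% of all tested genes were called as higher and 2.66% as lower. A further gene had an unadjusted p under 0.05 and a negative change, as had 1855 of the 15265 tested genes. Ccng1, with the same kind of site, did not pass the test (values below).

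Levels are normalized counts, that is, reads on a gene divided by 1 size factor per library. Changes are R837 plus taurine minus R837 on the log2(normalized count + 1) scale, from limma's two-sided test. The SE of a change is limma's moderated SE, which draws on the variance of other tested genes as well as the gene's own. P-values were adjusted by Benjamini-Hochberg over the whole set of tested genes, and a gene was called at an adjusted p under 0.05. Of the 10 genes, 2 rose with taurine and 0 fell. The genes that rose were Cdkn1a and Gadd45b. Over all tested genes 6.41% were called, 3.75% as higher and 2.66% as lower. The members' count rests on 2 genes only. At an unadjusted p under 0.05 the numbers were 2 higher and 1 lower, against 1767 and 1855 of the 15265 tested genes. Both edgeR and DESeq2 called 2 of the 10 genes higher and 0 lower. Over all genes, edgeR called 571 higher and 379 lower of 15265, and DESeq2 934 and 908 of 23406. The median change of the 10 genes was 0.0013, against -0.0114 over all tested genes.

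Libraries held 33585080 to 38392654 reads on genes, so counting error is small for all but Gadd45a and Zmat3. The 12 markers of plasmacytoid dendritic cells summed to normalized counts of 407963 to 429281 with taurine and 387566 to 410423 with R837. Of these markers, 2 were higher (16.7%) and 4 lower (33.3%), against 3.75% and 2.66% of all tested genes. No marker of this list was at 0 in all libraries. Neutrophil markers (7) summed to 1717 to 2079 with taurine and 1172 to 1707 with R837, and erythroid markers (7) to 162 to 239 with taurine and 86.6 to 126 with R837, with 1 gene of each list higher. Of the T cell markers (6) and NK cell markers (5), 2 each were at 0 in all libraries. The B cell (7), conventional dendritic cell (6) and monocyte and macrophage (8) sums overlapped between the groups, as did those of T cells. Among the conventional dendritic cell markers, 1 was lower with taurine. NK cell markers summed to 29.7 to 50.4 with taurine and 52.1 to 79.3 with R837. The part of these cells in the results was not tested. In such bulk samples fewer cells of a type and less RNA per cell cannot be told apart. Deviations of a library from the gene means correlated with exon length at a Spearman rho of -0.20 to -0.10 in the taurine libraries and 0.04 to 0.15 in the R837 libraries, across genes, which are not independent replicates. Long transcripts therefore tended to read lower in the taurine libraries.

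**Figure D1:**
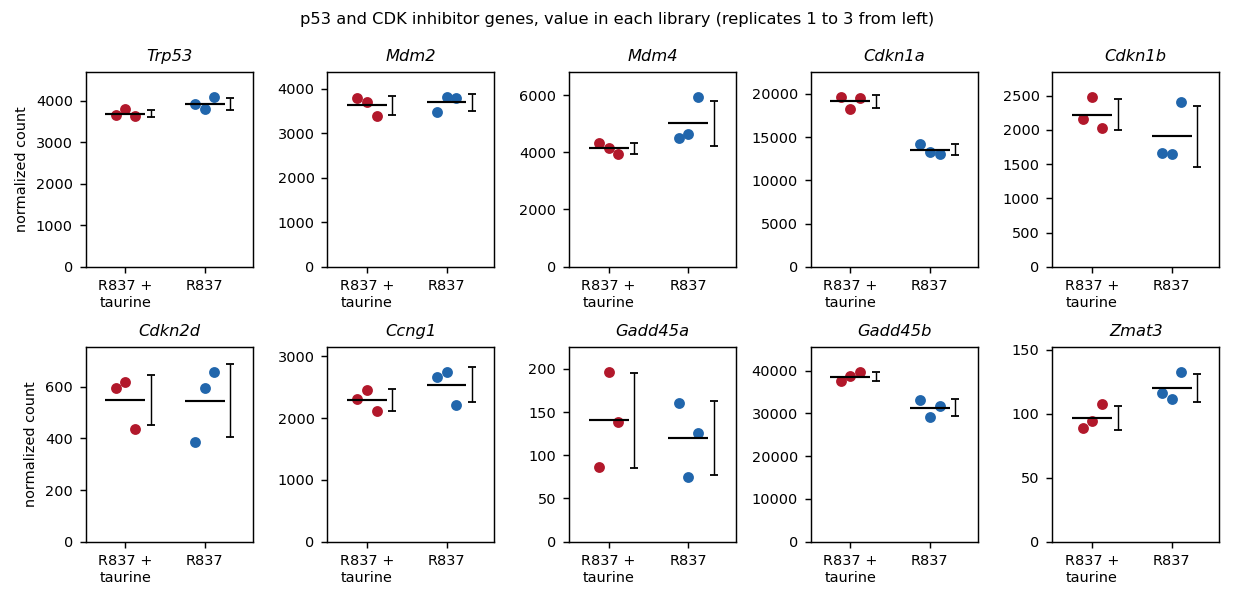
Normalized count of each of the 10 genes in each library, on linear axes that start at 0. Dots are libraries (R837 plus taurine left, R837 right), horizontal lines are means and bars beside them are ± 1 SD of 3 libraries. Cdkn1a and Gadd45b have all taurine libraries above all R837 libraries, and Trp53, Mdm4 and Zmat3 have them below.

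Trp53 encodes p53 itself (ENSMUSG00000059552.13, mm10 chromosome 11, 69580359 to 69591873, plus strand). It had normalized counts of 3654, 3790.4 and 3628 in the taurine libraries and 3916, 3792 and 4083 in the R837 libraries. The groups do not overlap, but the gap is narrow, with the highest taurine library just under the lowest R837 library. The log2 change was -0.09 ± 0.07 (SE; 95% interval -0.25 to 0.07, adjusted p = 0.490), so the gene did not pass the test. Over all tested genes, 29.6% had groups that do not overlap, 14.6% with taurine above and 15.0% with taurine below. Among the 10 genes the numbers were 2 above and 3 below.

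Mdm2, the ubiquitin ligase that marks p53 for degradation and is itself raised by p53 (ENSMUSG00000020184.15, chromosome 10, 117688875 to 117710758, minus strand), had 3783, 3702 and 3379.8 with taurine against 3473, 3803 and 3787 with R837. The ranges lie over each other, and the log2 change was -0.03 ± 0.08 (SE; 95% interval -0.21 to 0.16, adjusted p = 0.885). Mdm4, the partner that binds the transactivation domain of p53 without being an effective ligase (ENSMUSG00000054387.13, chromosome 1, 132959484 to 133030561, minus strand), had 4312, 4135 and 3949 with taurine against 4504, 4626 and 5919 with R837. All taurine libraries lie below all R837 libraries, and R837 replicate 3 stands far above the other two of its group. Its log2 change of -0.27 ± 0.11 (SE) had an unadjusted limma p of 0.0372 but did not pass after adjustment (adjusted p = 0.179) and was -0.14 without R837 replicate 3. Mdm4 has the longest annotated exon sequence of the 10 genes, 14798 bases, and once the dependence of each library on exon length and GC content had been taken out its change was -0.06 (adjusted p = 0.833). Per exon length, the ratio of Mdm4 to Mdm2 was 0.392 ± 0.009 with taurine and 0.467 ± 0.062 with R837 (SD, n = 3 each). In R837 replicates 1, 2 and 3 it was 0.445, 0.418 and 0.537, so replicate 3 stood apart here too. The length and GC trends were not taken out of this ratio.

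Cdkn1a encodes p21, a CDK inhibitor of the CIP/KIP family and the best known target of p53 (ENSMUSG00000023067.13, chromosome 17, 29090979 to 29100722, plus strand). Its normalized counts were 19610.3, 18224 and 19573 with taurine and 14246, 13337 and 13005 with R837. The lowest taurine library lies well above the highest R837 library, and the spread within each group is small. The means were 19136 ± 789.9 and 13529 ± 642 (SD, n = 3 each), which is a 1.41-fold difference. The log2 change was 0.50 ± 0.06 (SE; 95% interval 0.35 to 0.65, adjusted p = 0.00675). The call was kept in all 6 fits without 1 library, with changes of 0.47 to 0.54, and with the length and GC trends taken out the change was 0.46 (adjusted p = 0.00725). It was lost in limma without the abundance trend in the variance prior (adjusted p = 0.0959), a fit in which 4 genes of all tested passed. Cdkn1a shares 273 exon bases with a transcript on the opposite strand, AC167363.2, which was not analysed here.

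Cdkn1b encodes p27, the CIP/KIP inhibitor that keeps resting cells out of the cycle (ENSMUSG00000003031.14, chromosome 6, 134920401 to 134925513, plus strand). It had 2153, 2477 and 2035 with taurine and 1656, 1642 and 2415 with R837. The groups overlap because R837 replicate 3 lies among the taurine libraries, as it stood apart for Mdm4. The log2 change was 0.24 ± 0.16 (SE; 95% interval -0.11 to 0.60, adjusted p = 0.392), and without R837 replicate 3 it was 0.42 with an adjusted p of 0.0474. Cdkn2d encodes p19, an INK4 inhibitor of CDK4 and CDK6 (ENSMUSG00000096472.2, chromosome 9, 21288410 to 21291407, minus strand). It had 594, 617 and 437 with taurine and 387, 594 and 656 with R837. The taurine libraries lie inside the range of the R837 libraries, and the log2 change was 0.03 ± 0.22 (SE; adjusted p = 0.958).

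Ccng1 encodes cyclin G1, a p53 target that recruits a phosphatase to MDM2 (ENSMUSG00000020326.7, chromosome 11, 40748552 to 40755311, minus strand). It had 2307, 2453 and 2112 with taurine and 2658, 2739.6 and 2212 with R837. Taurine replicates 1 and 2 lie between the R837 libraries, and the log2 change was -0.14 ± 0.11 (SE; 95% interval -0.39 to 0.10, adjusted p = 0.460). Zmat3 encodes a zinc finger RNA-binding protein that p53 induces (ENSMUSG00000027663.12, chromosome 3, 32334792 to 32366014, minus strand). It was scarce, with 88.8, 94.2 and 107 with taurine and 116, 112 and 132 with R837. The groups do not overlap, yet the log2 change of -0.31 ± 0.21 (SE) did not pass (adjusted p = 0.414), and it was -0.13 after the length and GC trends were removed from this gene of 11435 exon bases.

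Gadd45a, the GADD45 gene that p53 induces after DNA damage (ENSMUSG00000036390.8, chromosome 6, 67035096 to 67037457, minus strand), had 86.8, 196 and 138 with taurine and 160.4, 75.1 and 126 with R837. Libraries of both groups interleave, with a coefficient of variation of 39.0% with taurine and 35.6% with R837, the widest of the 10 genes. The log2 change was 0.21 ± 0.36 (SE; 95% interval -0.62 to 1.04, adjusted p = 0.778), an interval that holds falls as well as rises. Its exons share 337 bases with E230016M11Rik on the other strand, which had 0 to 45.7 with taurine and 7.70 to 16.7 with R837, so its reads are uncertain.

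Gadd45b (ENSMUSG00000015312.9, chromosome 10, 80930073 to 80932204, plus strand) was the most abundant of the 10 genes, above 99.2% of tested genes by mean normalized count. It had 37523, 38644 and 39585 with taurine against 33059, 29228 and 31728 with R837. All taurine libraries lie above all R837 libraries, and the means were 38584 ± 1032 and 31338 ± 1945 (SD, n = 3 each), a 1.23-fold difference. The log2 change was 0.30 ± 0.06 (SE; 95% interval 0.16 to 0.44, adjusted p = 0.0283). The call was less firm than that of Cdkn1a: it was kept in 2 of the 6 fits without 1 library and lost without R837 replicate 2 (0.25, adjusted p = 0.113) and without taurine replicates 1, 2 or 3 (0.32, 0.30 and 0.28, with adjusted p-values of 0.0728, 0.0962 and 0.0964). With the length and GC trends taken out the change was 0.18 (adjusted p = 0.0785) for this gene of 1589 exon bases.

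**Figure D2:**
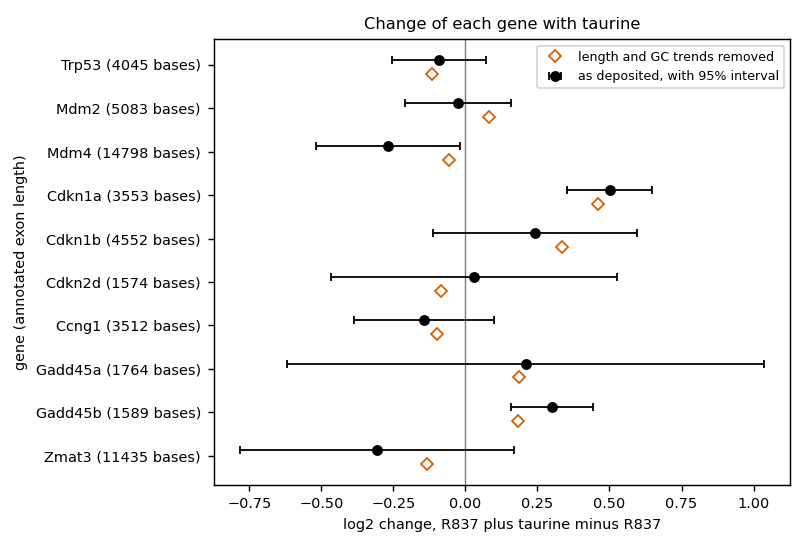
Log2 change of each of the 10 genes, R837 plus taurine minus R837, with the annotated exon length beside the name. Filled circles with bars are limma estimates with 95% intervals, and open diamonds are estimates after the length and GC trends of each library were removed. Cdkn1a stays at 0.46 or above, Gadd45b lies at 0.30 and 0.18, and the long transcripts Mdm4 and Zmat3 lie nearer to 0 once the trends are removed.

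Ordered by normalized count per kb of annotated exon, the 10 genes kept 1 order in both groups: Gadd45b, Cdkn1a, Trp53, Mdm2, Ccng1, Cdkn1b, Cdkn2d, Mdm4, Gadd45a and Zmat3. Per kb, Gadd45b stood at 24282 ± 649.7 with taurine and 19722 ± 1224 with R837, and Zmat3 at 8.46 ± 0.83 and 10.5 ± 0.95 (SD, n = 3 each). Neighbours whose libraries overlapped in both groups were Mdm2 with Ccng1 and Cdkn2d with Mdm4, and Cdkn1b with Cdkn2d overlapped in the R837 group. The annotated length counts exons of every isoform, so levels of genes with long unused exons are understated. Cdkn1a dominated the CDK inhibitors. It took 84.2%, 81.1% and 84.7% of the summed level per kb of the 7 CDK inhibitor genes in the taurine libraries and 83.9%, 80.9% and 76.7% in the R837 libraries. That sum was 6556, 6323 and 6504 per kb with taurine and 4778, 4642 and 4772 with R837, so every taurine library lay above every R837 library. As Cdkn1a makes up most of the sum, this gap is not a result separate from its own rise. Of the summed GADD45 level per kb, Gadd45b took 98.2% to 98.6% with taurine and 98.3% to 98.6% with R837.

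**Figure D3:**
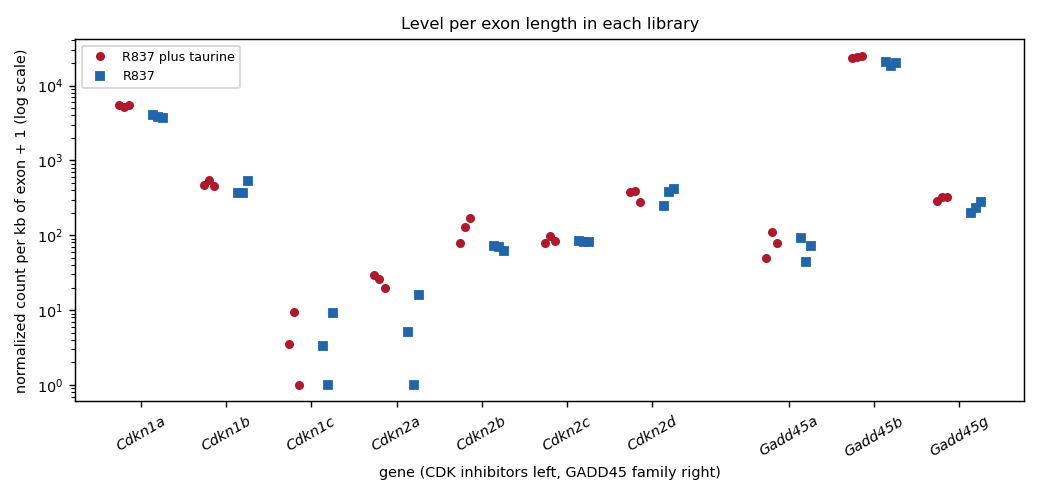
Normalized count per kb of exon, plus 1, on a log axis for the 7 CDK inhibitor genes and the 3 GADD45 genes. Each dot is a taurine library and each square an R837 library. Cdkn1a lies 6.90 to 12.3 times above Cdkn1b, and Gadd45b holds over 98% of its family's level, while Cdkn1c and Cdkn2a lie near the bottom with libraries at 0.

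Relatives of these genes outside the 10 were looked at next. Trp63 and Trp73, the homologues of Trp53, held 0 to 8 reads in any library, and Cdkn1c held 0 to 18, so these 3 were not tested. Of the 5 tested relatives, 1 rose and 0 fell, against 3.75% and 2.66% of all tested genes, and edgeR and DESeq2 gave 1 and 0. At an unadjusted limma p under 0.05, 4 were higher and 0 lower, against 1767 and 1855 of the 15265 tested genes. Ccng2, the unconventional cyclin that FOXO factors induce in resting cells, rose to 1909 ± 131 with taurine, against 1438 ± 91.5 with R837 (SD, n = 3 each; log2 change 0.41, adjusted p = 0.0428). That call was kept only without R837 replicate 3 among the 6 fits without 1 library, with adjusted p-values of 0.0327 to 0.133 and changes of 0.35 to 0.45, and it was also lost without a filter on low values, under totals without the 50 most abundant genes and in limma without the abundance trend. The INK4 gene Cdkn2b had 109, 175 and 234 with taurine against 98.1, 96.3 and 85.4 with R837 (log2 change 0.82, adjusted p = 0.126). Cdkn2a, the locus of p16 and ARF, had 33, 31 and 21 reads with taurine against 5, 0 and 17 with R837 (adjusted p = 0.168). Gadd45g had 336, 382 and 374 with taurine against 231, 268 and 322 with R837 (log2 change 0.42, adjusted p = 0.161), and Cdkn2c had a log2 change of 0.08 (adjusted p = 0.809).

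Of 30 tested genes among 31 other p53 targets, 2 rose and 0 fell, which is 6.67% and close to the 6.41% of all tested genes. The median log2 change of the list was -0.07. The genes that rose were Fas, the death receptor, and Rps27l, a ribosomal protein paralogue with a p53 site in its promoter window as in Cdkn1a. Fas had 1045, 1091 and 1238 with taurine and 639, 645 and 782 with R837 (log2 change 0.71 ± 0.12 (SE), adjusted p = 0.0167). Rps27l had 2689, 2452 and 2418 with taurine and 1838, 1652 and 1928 with R837 (log2 change 0.48 ± 0.09 (SE), adjusted p = 0.0235). In both genes all taurine libraries lie above all R837 libraries. Ddit4, an inhibitor of mTOR signalling, and Bax, the pore-forming death effector, had log2 changes of 0.48 and 0.36 and missed the threshold, with an adjusted p of 0.0590 and 0.0591. By DESeq2 5 rose and 0 fell, against 934 and 908 of the 23406 genes in that fit. The list held 4 called genes without R837 replicate 3, 1 without taurine replicate 1 and 0 without R837 replicates 1 or 2 or taurine replicates 2 or 3.

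Among 27 regulators of p53 (median log2 change -0.04), 4 rose (14.8%, against 3.75% of tested genes) and 2 fell (7.41%, against 2.66%). Those with the smallest p-values were Daxx, a histone chaperone that binds MDM2, Huwe1, a large ubiquitin ligase that targets p53, Ep300, an acetyltransferase of p53, and Pml, the scaffold of nuclear bodies. Daxx rose to 17029 ± 1349.8 with taurine, against 12390.0 ± 681 with R837 (SD, n = 3 each; log2 change 0.46, adjusted p = 0.0147), and Pml rose by 0.33 (adjusted p = 0.0322). The ribosomal proteins Rpl11 and Rpl5, which bind MDM2, were the other genes to rise, by 0.34 and 0.27, and are named after their values were seen. Huwe1, with 23507 exon bases, fell by 0.45 (adjusted p = 0.0204), and Ep300, with 14273, fell by 0.36 (adjusted p = 0.0287). Without the length and GC trends the changes of Huwe1 and Ep300 were -0.22 (adjusted p = 0.0473) and -0.23 (adjusted p = 0.0593). Under quantile normalization the list held 1 higher and 3 lower genes, without a filter on low values 1 and 1, and by DESeq2 4 and 6. It held 3 higher and 4 lower without R837 replicate 3, 1 higher without taurine replicate 2 and 0 without any other single library.

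The machinery that CDK inhibitors act on held 0 called genes in the main fit. Of 32 cyclins, CDKs and genes of the RB-E2F arm, 0 rose and 0 fell by limma and by edgeR, with a median log2 change of -0.01. At an unadjusted limma p under 0.05, 4 were higher and 5 lower, against 1767 and 1855 of the 15265 tested genes. DESeq2 gave 1 higher and 3 lower, against 934 and 908 of the 23406 genes in that fit. The repressor E2f6, the kinase Cdk4, the cyclin Ccna2 and the pocket protein Rb1 had the smallest p-values, with log2 changes of -0.62, 0.26, -0.47 and -0.37 and adjusted p-values of 0.0600, 0.0625, 0.0788 and 0.0993. Of 15 proliferation genes, 0 rose and 0 fell by limma (0 and 2 unadjusted), as by edgeR, while DESeq2 gave 0 and 2. Some other limma fits made calls in these 2 lists. A mean normalized count of at least 50 gave 1 higher and 1 lower gene of the cyclin list and 1 lower proliferation gene. Without R837 replicate 3 there were 1 higher gene of the cyclin list and 1 lower proliferation gene. Totals without the 50 most abundant genes gave 1 lower proliferation gene. Their median log2 change was -0.12, and -0.03 without the length and GC trends. The proliferation marker Mki67 had 4285 ± 232 with taurine and 5596 ± 805 with R837 (SD, n = 3 each; log2 change -0.38, adjusted p = 0.0743), and its change was -0.20 without the length and GC trends, the gene having 10061 exon bases. Cenpf, Mcm6 and Pcna had log2 changes of -0.49, 0.19 and 0.14, and of -0.27, 0.28 and 0.21 without these trends. Of 11 tested kinases that partner GADD45 proteins and FOXO factors, 0 rose and 0 fell by limma, by edgeR and by DESeq2, with 0 at an unadjusted p under 0.05. Map2k7, the kinase that GADD45B binds, Map3k4, Foxo3 and Map2k4 had log2 changes of -0.38, -0.31, -0.19 and -0.16.

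**Figure D4:**
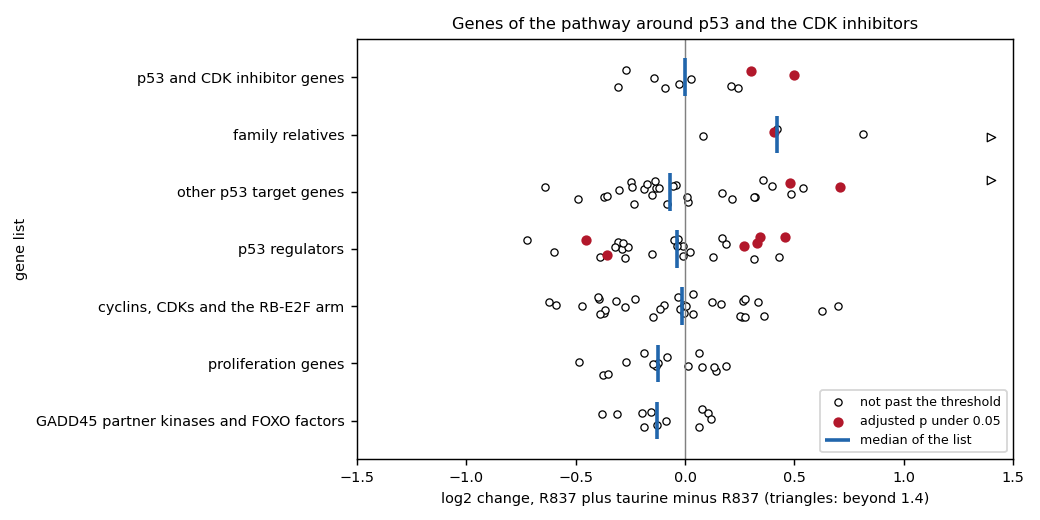
Log2 change, R837 plus taurine minus R837, of every tested gene in the 10 p53 and CDK inhibitor genes and in 6 lists around them. Filled dots passed an adjusted p under 0.05, open dots did not, triangles lie beyond 1.4, and vertical bars are list medians. The calls lie in the upper 4 lists, and the cyclin, proliferation and GADD45 partner lists hold 0 calls.

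The genes whose values most resembled those of Cdkn1a, the gene with the smallest p of the 10, were sought among 10712 tested genes with a mean normalized count of at least 100. The highest Pearson r over the 6 libraries on the log2 scale was 0.998 for Gm20481, a protein-coding model whose span overlaps Hspa1a. It was followed by Pla2g16 and Ninj1, both at an r of 0.996. These 6 points share their libraries and size factors and fall into the same 2 groups, so the coefficients describe the group difference as much as any likeness within groups. Their log2 changes with taurine were 0.68, 0.78 and 0.55, against 0.50 for Cdkn1a.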

How the data were processed

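Per the file headers, the authors deposited normalized counts, a signal on a linear scale, for each gene and library. In every library nearly all values, 100.0% to within 0.001 of a read, are whole reads divided by 1 size factor of 0.942 to 1.06, so reads could be recovered. The submitters' processing notes name HISAT2, StringTie, mm8 and mm10 without role. The counting tool and its strand setting are unknown from the sources used here. Of the identifiers, 52403 matched GENCODE M21 without version, and 95.2% of these had the same coordinates, so coordinates are taken as mm10. Exon length and GC content came from that annotation.

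Tested genes had at least 10 normalized counts in at least 3 libraries. They were fitted on log2(normalized count + 1) with limma 3.58.1 (R 4.3.3, trended prior) and Benjamini-Hochberg adjustment. Recovered reads went into edgeR 4.0.16 and DESeq2 1.42.0 as alternatives. Members and lists were chosen with earlier results of these data known. The genes named are all 10 members and their relatives, up to 4 genes with the smallest p of each list, the 3 genes most like the leading member, and genes sharing exons with a member; Rpl11 and Rpl5 were added after their values were seen. The fit was also run on simulated counts. These had the same dispersion for every gene, no length trend and larger changes than those of the 10 genes. That run therefore cannot show how firm the calls made here are. Replicates of a group differed beyond sampling noise.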

Additional observations from a re-analysis of the deposited data

How the results depend on the processing

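The number of the 10 genes called was 2. It was 1 without a filter on low values, under quantile normalization, after removal of length and GC trends and with the replicate block, and 0 in limma without the abundance trend. With 1 library left out it ran from 1 to 3. Over all genes 979 were called, against 547 without a filter, 4 without the abundance trend (3217 with an unadjusted p under 0.05), 1842 by DESeq2 and 615 with the replicate block. With 1 library left out that number ran from 134 (without R837 replicate 2) to 1477 (without R837 replicate 3). Totals without the 50 most abundant genes gave 462 higher and 585 lower genes, against 573 and 406.

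Deviations of same-numbered libraries correlated at -0.04 to 0.00, so no shared deviation by replicate number was seen. With 3 libraries a group this cannot show if replicates were paired by animal or culture. The block gave Gadd45b an adjusted p of 0.0577 and ended the call of Ccng2. Direction changed for 3 of the 10 genes, none called: Mdm2 (0.08 with length and GC trends removed; -0.07 to 0.02 with 1 library left out), Cdkn2d (-0.08 with the trends removed, -0.0047 with totals without the most abundant genes; -0.20 to 0.18 with 1 library left out) and Gadd45a (-0.10 to 0.51 with 1 library left out, and 0.22 with the reads of the overlapping gene added). Cdkn1a kept its call in 17 of 18 alternatives. Gadd45b kept its call in 9 of 18 and lost it also under quantile normalization (0.21, adjusted p = 0.0598) and without a filter (adjusted p = 0.0625). The causes were not tested. Gadd45a had 78 to 206 reads a library and Zmat3 88 to 127, the lowest depths of the 10 genes.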
